A study of Mus musculus with 4 samples.

Results

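The genes by which the small intestine takes up iron and heme were compared between mice carrying a CFLARs transgene (CFLARs Tg) and wild-type mice. The 10 genes were Cybrd1, Slc11a2, Slc40a1, Heph, Tfrc, Fth1, Ftl1, Hmox1, Slc46a1 and Steap4. They were chosen by symbol from their known roles, but with earlier results of these data known. The choice was made out of 19938 genes with a probe set of their own, and all 10 were measured by exactly 1 such probe set each. Total RNA of the small intestine of C57BL/6 mice had been hybridised to 4 single-colour Affymetrix arrays. The wild-type group held 2 arrays, titled XX (replicate 1) and XY (replicate 2). The CFLARs Tg group also held 2, titled XCFX (replicate 1) and XCFY (replicate 2). The series title places the animals in a study of necroptosis of epithelial cells and lethal ileitis in preterm mice. CFLARs is the short form of cFLIP, a regulator of caspase-8. The sources used here do not give the age of the animals, the promoter that drives the transgene, its copy number, the stretch of intestine or the number of animals behind an array. Each p-value is thus measured against the spread within 2 pairs of arrays of unlike title type, which may in part be technical. Xist on the XX and XCFX arrays and Y-linked genes on the XY and XCFY arrays read 9.08 to 12.92. On the other arrays these genes read 5.13 to 6.78. Each genotype therefore held 1 female and 1 male array, so the spread within a group also holds any sex difference.

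Dietary iron enters the villus enterocyte by separate routes. Ferric iron is reduced at the brush border, with the reductase DCYTB (Cybrd1) as a main candidate, and the ferrous ion is carried in by the metal transporter DMT1 (Slc11a2), while SLC46A1 was described as a carrier of heme and is also the proton-coupled folate transporter. Inside the cell, heme oxygenase 1 (Hmox1) opens the heme ring and frees its iron, which ferritin made of heavy (Fth1) and light (Ftl1) chains stores. Ferroportin (Slc40a1) exports iron across the basolateral membrane, where the copper oxidase hephaestin (Heph) turns it back to the ferric form for plasma transferrin. The transferrin receptor (Tfrc) brings iron in from the blood side, above all in dividing crypt cells, and Steap4 is a metalloreductase known to respond to inflammation.

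RefSeq promoter sequences (GRCm38.p6) were at hand for 6 of the 10 genes. They are shown for the 3 of these genes whose expression passed the test below, Cybrd1 and Slc46a1 among the genes that fell and Steap4, which rose. Each line gives the 170 bases before the annotated start site, 5′ to 3′ on the strand of the gene. Capitals mark letters that match a hypoxia-inducible factor core (GCGTG, or CACGC read on the other strand) or a STAT element (TTCNNNGAA).

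Cybrd1, chr2:71117884-71118053, plus strand: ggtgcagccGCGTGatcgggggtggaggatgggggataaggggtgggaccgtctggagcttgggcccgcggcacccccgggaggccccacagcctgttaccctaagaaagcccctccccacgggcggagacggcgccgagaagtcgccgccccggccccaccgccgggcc

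Slc46a1, chr11:78465531-78465700, plus strand: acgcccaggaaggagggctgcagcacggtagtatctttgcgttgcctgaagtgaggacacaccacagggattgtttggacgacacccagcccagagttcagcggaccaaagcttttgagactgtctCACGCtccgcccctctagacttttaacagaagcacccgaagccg

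Steap4, chr5:7960302-7960471, plus strand: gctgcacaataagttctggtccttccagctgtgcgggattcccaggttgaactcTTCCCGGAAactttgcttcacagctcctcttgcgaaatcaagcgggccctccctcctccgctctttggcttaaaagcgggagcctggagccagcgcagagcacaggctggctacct

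The core GCGTG began 161 bases before the start site in Cybrd1 and, on the other strand, 44 bases before it in Slc46a1. It was also found upstream of Tfrc, Fth1 and Ftl1, which did not pass the test, and thus in 5 of the 6 genes with a promoter sequence. The same letters lay within 250 bases upstream of 28.2% of the 32851 promoters of the table, counting both strands. The core form ACGTG, present in 16.6% of all promoters, and the NRF2 and BACH1 element TGACNNNGC, present in 10.2%, were found in none of these 3 upstream stretches (0 matches in 250 bases). The STAT element of Steap4 began 116 bases before the start site and occurs upstream of 7.02% of promoters. No motif searched overlapped another here. These are matches of letters and were not tested as binding sites.

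The deposited values are log2 expression values per probe set. Array medians lay between 8.31 and 8.33 and the highest readings between 14.50 and 14.55. Readings of Y-linked genes (Kdm5d, Uty, Eif2s3y) on the XX-type arrays and of Xist on the XY-type arrays, which scale the background, ran from 5.13 to 6.78, and the 40 readings of the 10 genes ran from 8.23 to 13.63, all above that range. At most 33 of 28856 probe sets had identical values on any pair of arrays, so no array was a copy of another. Of 12 enterocyte markers 11 read 11.03 or higher on every array, above the upper quartiles of the arrays (9.80 to 9.82), and sucrase-isomaltase (Sis) read 7.08 to 7.67. Afp, Ttr and Apob of the hepatocyte markers also lay above those quartiles on all 4 arrays.

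Among the 10 genes, 3 fell and 1 rose in CFLARs Tg (limma, Benjamini-Hochberg adjusted p under 0.05 over 13956 fitted genes), and 6 did not pass. Of all fitted genes 19.3% passed in either direction, 10.9% of them as lower and 8.44% as higher in CFLARs Tg. The 3 genes that fell were the ferric reductase gene Cybrd1 and both apical carriers, Slc11a2 and Slc46a1. The gene that rose was Steap4. All 10 passed the filter on low values, and their median difference was -0.18 against -0.01 over all fitted genes. The 4 arrays separated by genotype without overlap for 7 of the 10 genes, close to the 69.6% of all fitted genes that did so. The 3 genes that overlapped were Tfrc, Fth1 and Ftl1.

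**Figure D1:**
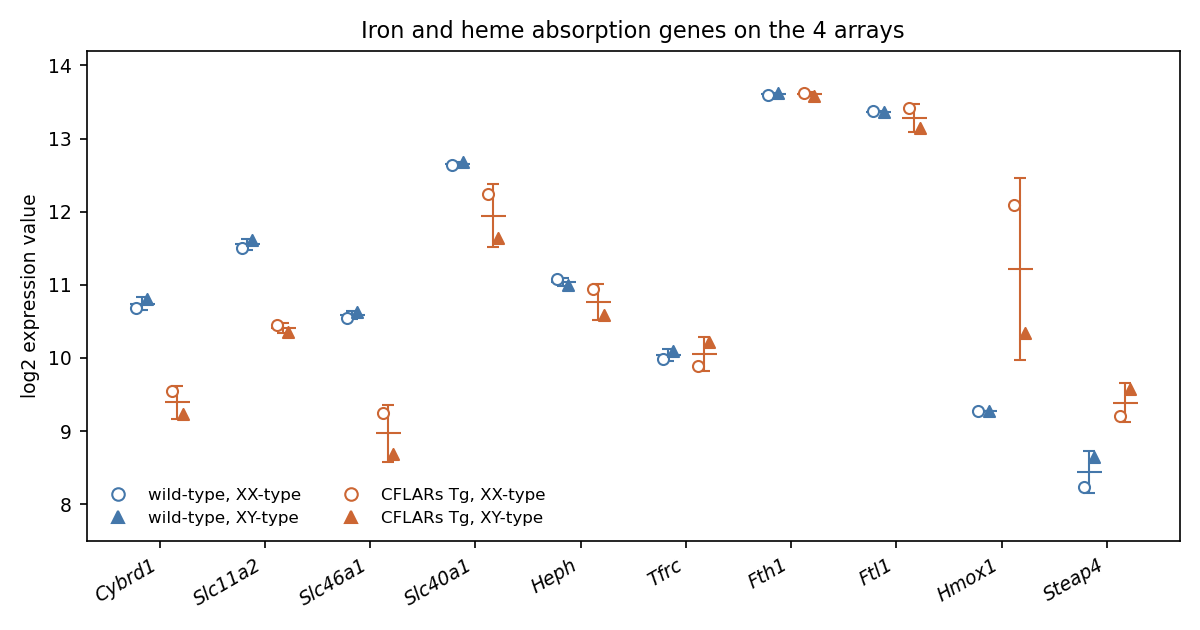
Deposited log2 expression values of the 10 iron and heme genes on each array, with open circles for XX-type and filled triangles for XY-type arrays, and blue for wild-type and orange for CFLARs Tg; horizontal bars are group means and whiskers the SD (n = 2). Cybrd1, Slc11a2 and Slc46a1 lie lower on both CFLARs Tg arrays, Steap4 lies higher, and the Hmox1 readings of the CFLARs Tg arrays are 12.10 and 10.34.

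The heme and folate carrier Slc46a1 showed the largest decrease of the 10. It read 10.55 and 10.62 on the wild-type arrays and 9.25 and 8.69 on the CFLARs Tg arrays, XX-type first. Both CFLARs Tg arrays lay more than 1 log2 unit below both wild-type arrays, and the XCFY array was the lowest. The mean fell by 1.62 on the log2 scale (SE 0.19, limma adjusted p = 0.0187), so that the signal in CFLARs Tg was 32.6% of that in wild-type. Only 32 of the 13956 fitted genes had a lower difference.

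Cybrd1, whose product reduces ferric iron in the brush border, read 10.68 and 10.81 in wild-type and 9.55 and 9.23 in CFLARs Tg. The groups were again apart by more than 1 log2 unit. The mean went from 10.74 ± 0.09 to 9.39 ± 0.23 (SD, n = 2), and thus fell by 1.35 (SE 0.13, limma adjusted p = 0.0161), to 39.2% of the wild-type signal.

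Slc11a2, the gene of the ferrous iron transporter DMT1, had the smallest standard error of the genes that fell. It read 11.50 and 11.61 in wild-type and 10.45 and 10.36 in CFLARs Tg. The arrays of a group were 0.11 and 0.10 apart, whereas the groups were separated by more than 1 log2 unit. The gene fell by 1.15 (SE 0.07, limma adjusted p = 0.00811), to 45.2% of the wild-type signal.

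The 3 apical genes moved in the same direction in each pair of arrays. In the XX-type pair (XCFX minus XX) they differed by -1.31 for Slc46a1, -1.13 for Cybrd1 and -1.04 for Slc11a2, and in the XY-type pair (XCFY minus XY) by -1.93, -1.58 and -1.25 in the same order. The XY-type pair gave the larger decrease for each of them, which was not tested because each pair holds 1 array per genotype. In bulk tissue, fewer cells of a type and less RNA per cell cannot be told apart. In a fit without wild-type replicate 1, which leaves the CFLARs Tg pair as the source of the variance, the limma adjusted p was 0.144 for Slc46a1, 0.0984 for Cybrd1 and 0.0647 for Slc11a2, and without wild-type replicate 2 it was 0.128, 0.106 and 0.0801, so these calls rest on having both wild-type arrays. The differences themselves hardly moved, with lowest and highest values of -1.42 and -1.29 for Cybrd1 and -1.20 and -1.09 for Slc11a2 in those fits.

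The basolateral export genes lay lower in CFLARs Tg without passing the test. Slc40a1, which encodes ferroportin, the exporter of cellular iron, read 12.63 and 12.68 in wild-type and 12.25 and 11.64 in CFLARs Tg. Both CFLARs Tg arrays were below both wild-type arrays, with XCFY 0.61 below XCFX. The difference was -0.71 (SE 0.21, 95% confidence interval -1.26 to -0.17, limma adjusted p = 0.0751). It passed with the title type as a block (adjusted p = 0.0357). The difference was -1.02 without CFLARs Tg replicate 1 and -0.41 without CFLARs Tg replicate 2, in fits that hold no spread between CFLARs Tg arrays.

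Heph, the X-linked gene of the ferroxidase hephaestin, read 11.07 and 11.00 in wild-type and 10.94 and 10.59 in CFLARs Tg. The XCFX array lay just below the lower wild-type array, and the XCFY array was the lowest. The difference was -0.27 (SE 0.13, 95% confidence interval -0.61 to 0.07, limma adjusted p = 0.199), and it moved with the CFLARs Tg array left out. It was -0.45 without CFLARs Tg replicate 1 and -0.093 without CFLARs Tg replicate 2.

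Storage and blood-side uptake genes gave nearly equal means in the genotypes. Fth1, the ferritin heavy chain gene, read 13.60 and 13.62 in wild-type and 13.63 and 13.58 in CFLARs Tg, and the groups overlapped. Its difference was -0.0053 (SE 0.06, limma adjusted p = 0.956), with a 95% confidence interval of -0.15 to 0.14. These readings lie close to the top of the range of the arrays.

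Ftl1, the ferritin light chain gene, read 13.37 and 13.36 in wild-type and 13.41 and 13.15 in CFLARs Tg. The XCFX array was the highest of the 4 and the XCFY array the lowest. The difference was -0.09 (SE 0.10, 95% confidence interval -0.36 to 0.18, limma adjusted p = 0.582). It was -0.22 without CFLARs Tg replicate 1 and 0.047 without CFLARs Tg replicate 2. A further 4 probe sets are annotated to Ftl1 together with microRNA genes, and they differed by -0.10, -0.08, -0.10 and -0.10. Ferritin genes have near-identical processed copies, so probes of Fth1 and Ftl1 may read more than 1 locus.

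Tfrc, the gene of the transferrin receptor, read 9.98 and 10.10 in wild-type and 9.89 and 10.21 in CFLARs Tg. The CFLARs Tg arrays bracketed the wild-type arrays. Its difference was 0.0084 (SE 0.13, 95% confidence interval -0.32 to 0.34, limma adjusted p = 0.969). Markers of proliferating cells were higher for 9 of 9 fitted genes. Of these 4 rose, beside 8.44% of all fitted genes, namely Rrm2, Mcm3, Top2a and Mcm5, by 0.69, 0.57, 0.48 and 0.47. Rrm2 did not pass when unfiltered, nor Top2a when probe sets were summarised by their median. The summed linear signal of the proliferation markers was 18001 to 18329 in wild-type and 21100 to 25522 in CFLARs Tg. The relation of these markers to Tfrc was not tested.

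**Figure D2:**
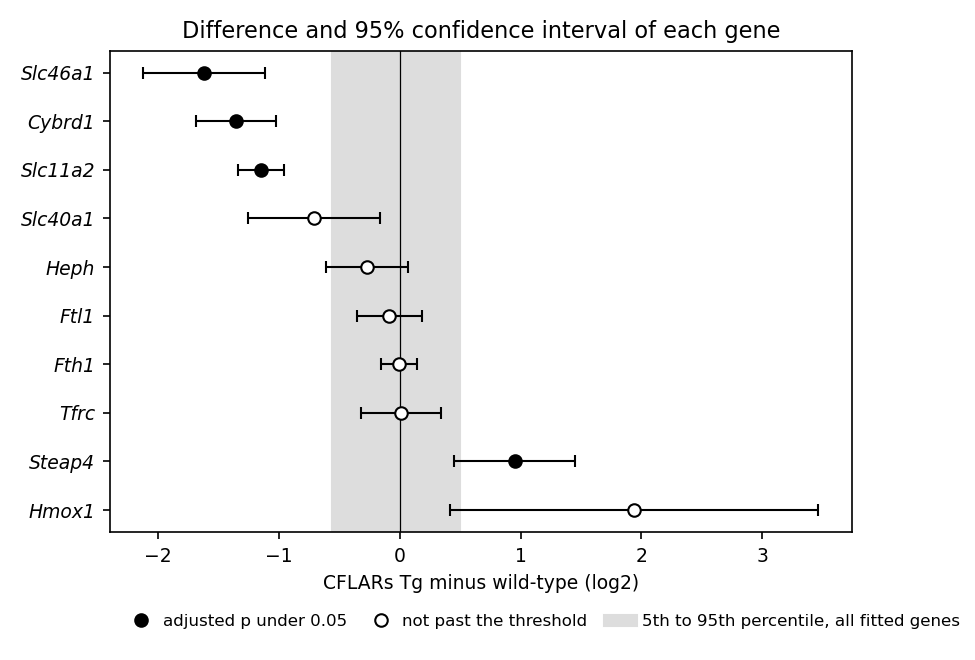
Difference between CFLARs Tg and wild-type (log2, horizontal axis) for each of the 10 genes with its 95% confidence interval from limma, not adjusted for the number of genes; filled points passed the adjusted threshold and open points did not, and the grey band spans the 5th to the 95th percentile of all fitted genes (-0.56 to 0.50). Slc46a1, Cybrd1 and Slc11a2 lie wholly below the band, Tfrc, Fth1 and Ftl1 lie at its centre, and the interval of Hmox1 runs from 0.41 to 3.46.

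Hmox1, the inducible heme oxygenase gene, had the largest difference of the 10 but did not pass the test. It read 9.27 and 9.28 in wild-type, and 12.10 on the XCFX and 10.34 on the XCFY array. Both CFLARs Tg arrays lay above both wild-type arrays by more than 1 log2 unit, and they lay 1.76 apart from each other. The mean difference was 1.94 (SE 0.58, limma adjusted p = 0.0791), a 3.83-fold ratio of CFLARs Tg to wild-type. It passed with the title type as a block (adjusted p = 0.0279). Its size depended on the CFLARs Tg array used: the difference was 1.06 without CFLARs Tg replicate 1 and 2.82 without CFLARs Tg replicate 2. These fits hold no spread between CFLARs Tg arrays. Of all fitted genes, 10 had a larger excess of XCFX over XCFY. The constitutive heme oxygenase gene Hmox2 differed by -0.15 (adjusted p = 0.188).

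Macrophages that break down red cells also express Hmox1 and Slc40a1, and liver does so too. Of 11 macrophage markers 10 were fitted, 10 of these lay higher in CFLARs Tg and 0 passed the test (limma; 5 had an unadjusted p under 0.05), with a median of 0.34. With the title type as a block 1411 of the 13956 fitted genes passed as higher. Among the macrophage markers 5 did, namely Lyz2, Cd14, Fcgr3, Itgam and C1qa, and after quantile normalization Fcgr3 did. These 5 differed by 0.99, 1.11, 0.91, 1.22 and 0.34. The other fitted markers, Cd68, C1qb, Mrc1, Adgre1 and Csf1r, differed by 0.34, 0.30, 0.28, 0.15 and 0.04. Cd14 had a wild-type mean of 7.32, under the filter cut of 7.48, and was fitted only through its CFLARs Tg readings. The summed linear signal of the macrophage markers was 6650 and 6874 in wild-type, 7917 on the XCFX array and 11042.5 on the XCFY array. The part of these cells in the Hmox1 and Slc40a1 readings was not tested. The hemoglobin scavenger receptor gene Cd163 read 6.54 to 6.81, within or just above the background scale. Hepatocyte markers lay lower in 6 of 6 fitted genes, of which Afp and Ttr fell, by 1.76 and 0.84, beside 10.9% of all fitted genes. The summed signal of the hepatocyte markers was 24385 and 29670 in wild-type, 17010 on the XCFX array and 9555 on the XCFY array. On the XCFY array Apob, Ttr and Afp read 12.36, 11.26 and 10.32, while Alb, Ahsg and Fgb read 6.57, 6.57 and 8.06. The sum there thus rests mostly on Apob, Ttr and Afp. Alb, Ahsg and Fgb differed by -0.27, -0.38 and -0.21 in the XX-type pair and by -6.15, -4.37 and -2.42 in the XY-type pair. Afp, Ttr and Apob differed by -1.57, -0.61 and -0.23 in the XX-type pair and by -1.94, -1.07 and -0.81 in the XY-type pair. Of the 6 erythroid markers with a probe set of their own 2 were fitted, and 0 passed (limma; 0 had an unadjusted p under 0.05). Their summed signal was 1060 and 1320 in wild-type and 1253 and 1126 in CFLARs Tg, and the globin genes were not analysed here.

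Steap4, a metalloreductase gene, was the member that rose. It read 8.23 and 8.64 in wild-type and 9.20 and 9.58 in CFLARs Tg. Each CFLARs Tg array was above both wild-type arrays, and in both genotypes the XY-type array read higher. The mean rose by 0.95 (SE 0.19, limma adjusted p = 0.0367), a 1.93-fold difference. The increase was 0.97 between the XX-type arrays and 0.93 between the XY-type arrays, the closest agreement of the genes that passed. The call was lost without wild-type replicate 1 (difference 0.75, adjusted p = 0.198) and without wild-type replicate 2 (difference 1.16, adjusted p = 0.129). Neutrophil markers also rose, in 6 of 7 fitted genes of 10 listed, beside 8.44% of all fitted genes. S100a9 (2.71) and S100a8 (2.67) were in front. Without CFLARs Tg replicate 1 these differed by 3.31 and 3.58, and without CFLARs Tg replicate 2 by 2.11 and 1.76, and the call of S100a8 was lost without a filter. The 6 that rose had wild-type means of 6.71 to 7.30, under the filter cut of 7.48. They entered the fit only through their CFLARs Tg readings, so their count is no separate support for a rise. With the lowest 50% of genes left out 0 of the neutrophil markers were fitted. Their summed signal was 1249 and 1341 in wild-type, 3225 on the XCFX array and 7885 on the XCFY array. The part of these cells in the Steap4 reading was not tested.

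**Figure D3:**
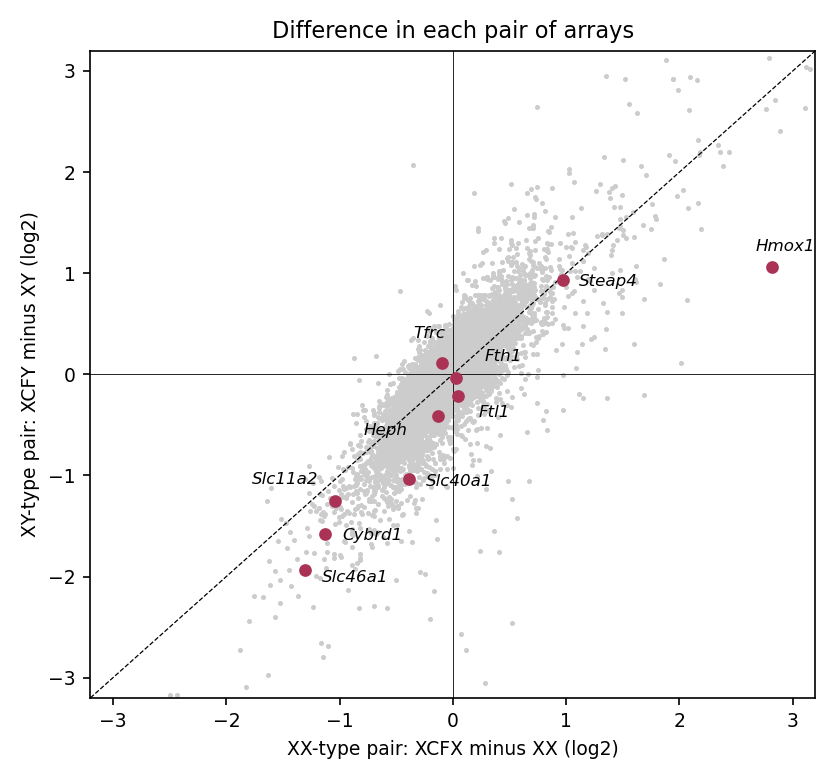
Difference between CFLARs Tg and wild-type for the XX-type arrays (horizontal axis, log2) and the XY-type arrays (vertical axis, log2), with the 10 genes (dark red, labelled) and all fitted genes (grey; 26 genes lie outside the axes), with the dashed line marking equal differences. The 3 apical genes lie below the line at the lower left, Steap4 lies on it, and Hmox1 lies far to its right, at 2.82 and 1.06.

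The decrease of the apical genes was set beside the enterocyte markers. Of 11 fitted enterocyte markers 0 passed the test (limma; 6 had an unadjusted p under 0.05), 10 lay lower in CFLARs Tg, and their median difference was -0.34. With the title type as a block 1701 of the 13956 fitted genes passed as lower, among them Alpi (limma adjusted p = 0.0354) and Lct (adjusted p = 0.0410). Without a filter Sis passed as lower (adjusted p = 0.0204). The summed linear signal of the enterocyte markers was 122417 and 122851 in wild-type, 106062 on the XCFX array and 79252 on the XCFY array. Lactase (Lct) differed by -1.49 (limma adjusted p = 0.103), Fabp1 by -0.81, Fabp2 by -0.72 and Alpi by -0.52. Slc5a1, Cdhr5, Anpep, Apoa4 and Apoa1 differed by -0.39, -0.34, -0.30, -0.27 and -0.20. The smallest differences were those of the brush border gene Vil1 (-0.08) and the maltase gene Mgam (0.01). Lct differed by -2.26 without CFLARs Tg replicate 1 and by -0.72 without CFLARs Tg replicate 2. The differences of Slc46a1, Cybrd1 and Slc11a2 were -1.62, -1.35 and -1.15, and the part of the enterocyte share of the tissue in them was not tested.

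The likeness of profiles was measured as the Euclidean distance over the 4 arrays after each gene was centred on its own mean. The genes nearest to Slc46a1 were the alcohol dehydrogenase gene Adh1 (distance 0.10), Glod5 (0.11) and Gpr155 (0.14), which differed by -1.70, -1.60 and -1.53. Among the 10 genes, Cybrd1 was nearest to Slc11a2 (0.26) and then to Slc46a1 (0.32). Hmox1 had no close neighbour: the nearest genes were the cytokine gene Tslp (0.80), the interleukin gene Il1a (0.82) and BC023105 (0.87), with differences of 1.36, 1.93 and 1.93. With 4 arrays in 2 groups, these distances describe the profiles only.

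The rest of iron and heme metabolism was followed in 9 further lists, also chosen with earlier results of these data known. Of 96 genes listed, 88 had a probe set of their own and 80 were fitted, of which 9 rose and 9 fell (limma adjusted p under 0.05). This is 22.5% of them, beside 19.3% of all fitted genes, and their median difference was -0.06 beside -0.01. The counts per list below stand beside 10.9% of all fitted genes that passed as lower and 8.44% as higher. No list count was tested against these shares. Without either wild-type array 0 of the 80 passed (limma), so each call named in the lists below rests on having both wild-type arrays, as do the calls of the neutrophil, proliferation and hepatocyte markers.

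**Figure D4:**
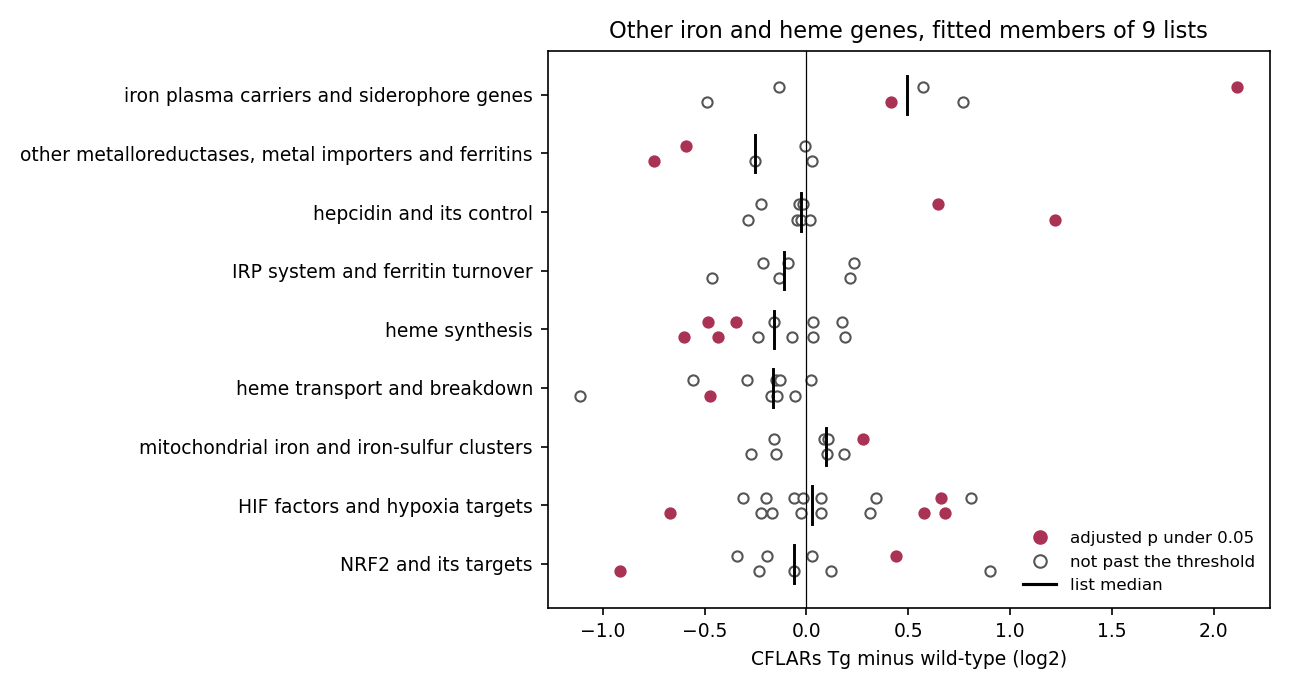
Difference between CFLARs Tg and wild-type (log2, horizontal axis) of the fitted genes of 9 lists of iron and heme metabolism (rows); filled points passed the adjusted threshold, open points did not, and the vertical black bars are list medians. The 4 filled points of heme synthesis lie to the left of 0, and the point at 2.11 in the top row is Lcn2.

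Heme synthesis genes fell in part. Of 11 fitted genes 4 fell, beside 10.9% of all fitted genes, and 0 rose, with a median of -0.16. The 4 genes encode consecutive late enzymes: Urod (uroporphyrinogen decarboxylase) fell by 0.48 (adjusted p = 0.0260), Cpox (coproporphyrinogen oxidase) by 0.60 (adjusted p = 0.0254), Ppox (protoporphyrinogen oxidase) by 0.43 (adjusted p = 0.0233) and Fech (ferrochelatase, which inserts the iron) by 0.35 (adjusted p = 0.0372). Cpox read 10.79 and 10.68 in wild-type and 10.24 and 10.03 in CFLARs Tg, without overlap. Alas1, the gene of the first and rate-limiting enzyme outside red cells, differed by 0.19 (adjusted p = 0.420), and Alad, the gene of the next enzyme, by -0.07.

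Among genes of heme transport and breakdown, 1 of 10 fitted genes fell and 0 rose, and 9 lay lower in CFLARs Tg (median -0.16). Blvrb, a biliverdin reductase gene, fell by 0.48 (adjusted p = 0.0270). The heme exporter gene Flvcr1 read 11.45 and 11.52 in wild-type and 10.79 and 9.96 in CFLARs Tg, a difference of -1.11 (adjusted p = 0.0557), which passed with the title type as a block (adjusted p = 0.0242) and with the median of its probe sets (difference -1.06, adjusted p = 0.0440). Flvcr2 differed by -0.56 (adjusted p = 0.208; 0.0442 with the title type as a block) and Bach1, the gene of a heme-binding repressor of Hmox1, by -0.29 (adjusted p = 0.175).

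Of 5 fitted genes among other metalloreductases, metal importers and ferritins, 2 fell and 0 rose (median -0.25). Both are ZIP carriers, which can import zinc, manganese and iron that is not bound to transferrin. Slc39a8 read 10.85 and 10.87 in wild-type and 10.31 and 9.91 in CFLARs Tg and fell by 0.75 (adjusted p = 0.0335), and Slc39a14 fell by 0.59 (adjusted p = 0.0185). Among the other STEAP reductase genes, Steap2 differed by -0.25 (adjusted p = 0.0689) and Steap3 by 0.03. Steap1 was left out by the filter on low values, at 6.31 in wild-type and 6.65 in CFLARs Tg on average. Its readings ran from 6.31 to 6.71, all within the background scale (5.13 to 6.78). Steap1 passed as higher when no filter was used (difference 0.34, adjusted p = 0.0389), but this is a difference between readings within background.

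Of 6 fitted genes for carriers of iron and heme in body fluids and for siderophore binding, 2 rose and 0 fell (median 0.49). Lcn2, whose product lipocalin 2 binds bacterial siderophores, read 8.14 and 8.46 in wild-type and 9.69 and 11.13 in CFLARs Tg and rose by 2.11 (adjusted p = 0.0478), or by 2.83 without CFLARs Tg replicate 1 and 1.39 without CFLARs Tg replicate 2. Its call was lost without a filter (adjusted p = 0.0530). Ltf, the gene of the iron-binding protein lactoferrin, rose by 0.41 (adjusted p = 0.0231). Hp (haptoglobin) differed by 0.77 and Cp (ceruloplasmin) by 0.57, and with all 4 arrays in the fit both passed only with the title type as a block. Trf, the transferrin gene, differed by -0.49 (adjusted p = 0.0630), beside the lower hepatocyte markers given above, and their part in it was not tested.

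In the list of hepcidin and its control, 2 of 9 fitted genes rose and 0 fell (median -0.03). Hepcidin is the liver hormone that triggers the loss of ferroportin from the cell surface, and bone morphogenetic proteins raise it. Bmp2 read 9.81 and 9.76 in wild-type and 10.98 and 11.02 in CFLARs Tg, with groups far apart for their spread, and rose by 1.22 (SE 0.06, adjusted p = 0.00417). Id1, a target gene of such signals, rose by 0.64 (adjusted p = 0.0250). Hamp, the hepcidin gene, read 5.83 to 6.33 on the 4 arrays, within the background scale. Hamp2 differed by -0.29, Smad7 by -0.22, Bmp6 by -0.04 and Smad6 by -0.03.

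Of 6 fitted genes of the iron regulatory protein (IRP) system and ferritin turnover, 0 passed the test (limma; 3 had an unadjusted p under 0.05), and the median was -0.11. Both IRPs bind iron-responsive elements in the messages of ferritin, ferroportin, DMT1 and the transferrin receptor. Aco1 (IRP1) differed by -0.21 and Ireb2 (IRP2) by -0.13, Fbxl5, which targets IRP2 for degradation, by 0.23, Ncoa4, the receptor that brings ferritin to autophagy, by -0.46, and the iron chaperone gene Pcbp1 by 0.22. The mitochondrial iron and iron-sulfur cluster list had 1 gene that rose among 8 fitted and 0 that fell (median 0.09): Slc25a37 (mitoferrin 1) rose by 0.28 (adjusted p = 0.0389), a call lost with the title type as a block (adjusted p = 0.0537). Isca1 differed by -0.27, Glrx5 by 0.18 and Isca2 by -0.16.

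Hypoxia-inducible factors are known to drive iron uptake genes in the intestine, with HIF-2 (Epas1) as the form that acts on Cybrd1, Slc11a2 and Slc40a1. Of 16 fitted genes of this list 3 rose and 1 fell (median 0.03). Hif1a read 10.94 and 11.01 in wild-type and 11.62 and 11.70 in CFLARs Tg and rose by 0.68 (adjusted p = 0.0161), whereas Epas1 differed by -0.17 (adjusted p = 0.0991). The glucose carrier gene Slc2a1 rose by 0.66 (adjusted p = 0.0293), Ndrg1 fell by 0.67 (adjusted p = 0.0150), and Car9 differed by 0.81 (adjusted p = 0.0639; 0.0219 with the title type as a block). The third gene that rose was Adm, by 0.58 (adjusted p = 0.0285).

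NRF2 (Nfe2l2) is a stress-responsive activator of Hmox1, ferritin and glutathione genes. Of 9 fitted genes of its list 1 rose and 1 fell (median -0.06). Txnrd1, the thioredoxin reductase gene, rose by 0.44 (adjusted p = 0.0195). The subunits of glutamate-cysteine ligase differed in direction: the modifier subunit gene Gclm read 12.05 and 12.04 in wild-type and 11.37 and 10.89 in CFLARs Tg and fell by 0.92 (adjusted p = 0.0306), and the catalytic subunit gene Gclc read 9.88 on both wild-type arrays, 11.23 on the XCFX and 10.33 on the XCFY array, a difference of 0.90 that passed only with the title type as a block among the fits of all 4 arrays (adjusted p = 0.0393). Osgin1 differed by -0.34 (adjusted p = 0.107; 0.0341 with the title type as a block).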

How the data were processed

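Total RNA was extracted with Trizol and labelled with biotin for Affymetrix arrays, per the labels' protocols. The authors deposited log2 values for 28856 probe sets on each of 4 arrays. How they were summarised and normalized is not given in the sources used here. They were used as deposited. Probe sets with exactly 1 gene symbol in the platform annotation were kept (21789, for 19938 genes), and each gene was read from its brightest probe set by the mean of all arrays. Symbols were checked against GRCm38.p6 gene identifiers, found for 21698 probe sets, and 0 changed. The 30% of genes with the lowest mean (under 7.48) were left out, and 13956 genes were fitted with limma 3.58.1 in R 4.3.3 (lmFit, eBayes, no covariates, 2 residual degrees of freedom), with Benjamini-Hochberg adjustment over all fitted genes. The fit was tested on simulated data. Confidence intervals (95%) are limma's and unadjusted. Summed signals add 2 to the power of the log2 value over a marker list.

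The 10 genes, the lists, and the rule for naming (all 10 genes, and up to 4 fitted genes of each other list with the largest difference in size) were chosen with earlier results of these data known. Other genes named (Hmox2, Alas1, Alad, Steap1, Ltf, Hamp, Bmp6, Smad6, Ireb2, Adm, Epas1, Slc7a11, Srxn1, Mafg, Keap1, Nqo1, Nfe2l2, Vil1, Mgam, Sis, Slc5a1, Cdhr5, Anpep, Apoa4, Apoa1, Cd163, C1qa, Cd68, C1qb, Mrc1, Adgre1, Csf1r, Ttr and Apob) were chosen after their values were seen. Arrays were paired by title type, XX with XCFX and XY with XCFY. Alternatives were another filter, probe set rule, normalization, variance prior, the title type as a block, and leaving out each array. The number of arrays limits the precision. Symbols on a list without a probe set of their own were not analysed here.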

Additional observations from a re-analysis of the deposited data

Results flagged for a closer look

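In 3 of the 10 genes the genotypes differed in opposite directions between the XX-type and the XY-type arrays. For Ftl1, XCFX minus XX was 0.04 and XCFY minus XY was -0.21, a gap of 0.26. For Tfrc these differences were -0.10 and 0.11, a gap of -0.21, and for Fth1 they were 0.026 and -0.037, a gap of 0.063. The gap was not tested, because each title type holds 1 array per genotype. Opposite signs were found in 23.1% of all fitted genes.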

How the results depend on the processing

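Cybrd1, Slc11a2, Slc46a1 and Steap4 kept their direction and their call in each of the 7 settings that used all 4 arrays: no filter, the lowest 50% of genes left out, the median of probe sets, quantile normalization, median centring, a variance prior with an intensity trend, and the title type as a block. With that block 6 of the 10 genes passed, with Hmox1 and Slc40a1 added, beside 3112 of the 13956 fitted genes. When arrays were left out in turn, the number passing ran from 0 to 8 among the 10 genes, from 0 to 42 among the 80 wider iron and heme genes, and from 40 to 6559 among all fitted genes, where 2695 passed with all arrays. The low counts came without a wild-type array and the high ones without a CFLARs Tg array. Small differences changed sign: Fth1 was 0.041 after quantile normalization and 0.0059 after median centring, and it ran from -0.026 to 0.015 over the fits without an array. Ftl1 was 0.032 after quantile normalization and ran from -0.22 to 0.047 without an array, and Tfrc ran from -0.16 to 0.17. The cause was not tested.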

Other observations

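Slc7a11, the cystine carrier gene and an NRF2 target, was left out of the fit by the filter on low values. It read 6.31 and 6.43 in wild-type, within the range of background, and 7.88 and 8.90 in CFLARs Tg. When no filter was used it passed as higher (difference 2.01, limma adjusted p = 0.0300). Hmox1 and Gclc, from the same pathway, read higher on the XCFX than on the XCFY array, by 1.76 and 0.91, while Slc7a11 read higher on the XCFY array. The other fitted genes of the NRF2 list had smaller gaps. Srxn1, Gclm, Osgin1, Mafg, Keap1, Nqo1 and Txnrd1 read higher on XCFX by 0.55, 0.47, 0.26, 0.24, 0.15, 0.06 and 0.008. Nfe2l2 read higher on XCFY by 0.10. An excess of XCFX over XCFY larger than that of Gclc was found in 73 of the 13956 fitted genes. Of the other 9 iron and heme absorption genes, Tfrc and Steap4 also read higher on the XCFY array, and the remaining 7 read higher on the XCFX array. The smallest excess of these 7, 0.04 for Fth1, was exceeded in 5393 of the 13956 fitted genes.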
